A study of Mus musculus with 15 samples.

Results

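The change in gene expression of mouse hepatocytes kept as a monolayer between 4 h and 24 h of culture is described here, from the 3 arrays at 24 h against the 3 arrays at 4 h, 6 of the 15 arrays in the series. Every probe set that the array annotation pairs with exactly 1 gene symbol was taken, which gave 34945 of 45101 probe sets and 18193 genes. Probe sets whose values only followed the array background were then set aside, and 12423 genes were left to test. That step used the spread of each probe set over all 15 arrays, monolayer arrays included, and the probe set with the largest SD then stood for its gene.

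The cells were primary hepatocytes of male C57BL/6 mice, isolated and then kept for 4 h or 24 h, either as monolayers (labelled TCD) or as 3D aggregates (labelled RWV). Freshly isolated cells at 0 h served as the baseline, and each of the 5 groups held 3 arrays that the design text calls independent biological replicates. The labels give no age and no culture medium. Each deposited value is a log2 intensity of 1 probe set minus the median of the 3 fresh arrays, so 0 is the fresh level, 1 is a doubling and -1 a halving. The values hold no absolute level, and a gene that was dark in fresh cells also sits at 0 there.

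Hepatocytes are the main cells of the liver: they make bile acids, urea and most plasma proteins, store and release glucose, and clear drugs and ammonia. Their isolation frees them from neighbouring cells and matrix, and once seeded on a flat surface they attach, flatten and build stress fibres. Hepatocytes in such dishes are known to lose liver functions while cytoskeletal, adhesion and growth genes come up, a process called dedifferentiation.

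A few facts of the arrays touch all results below. The hybridisation controls, bacterial RNAs added in fixed amounts, had a median of 1.08 on the second 4 h monolayer array and -0.73 to 0.18 on the other 14. They were lower on the 24 h monolayer arrays, at -0.51 to -0.40, than on the 4 h ones, at -0.05 to 1.08 (exact two-sided permutation p = 0.1). A fit that weights arrays by their scatter gave the second 4 h array a weight of 0.171 against 0.439 to 3.23 for the others. Every list below was therefore counted again without it. For Actb, the control probe set at the 3' end minus that at the 5' end gave -0.21 ± 0.02 at 4 h and -0.44 ± 0.01 at 24 h (SD, n = 3, exact two-sided permutation p = 0.1, the smallest that 3 against 3 arrays allow), while for Gapdh it gave 0.02 ± 0.05 and -0.04 ± 0.02 (exact two-sided permutation p = 0.2). The part of RNA quality and of the hybridisation in the results was not tested. The median change over all tested genes was 0.06, but 10 genes often taken as references had a mean change of 0.57, and 6 of them rose and 3 fell. They were Sdha, Cyc1, B2m, Eif4a2, Tbp, Hprt, Gusb, Polr2a, Ywhaz and Rpl13a. Some also belong to lists below: Rpl13a to the ribosomal proteins, Sdha and Cyc1 to the TCA cycle and respiratory chain, and Gusb to the lysosome. For those lists this centring is not an independent check. Centring the arrays on those 10 genes moved the median of all genes to -0.51, so the split between rises and falls depends on the scaling, and groups for which this turns the majority are named where they appear.

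Between 4 h and 24 h, 4481 of the 12423 genes rose and 2424 fell, which is 36.1% and 19.5% of the genes tested, 55.6% in all. A call means an adjusted p under 0.05 by limma with Benjamini-Hochberg adjustment over all tested genes, and changes are given on the log2 scale with the standard error of the fit, from 3 arrays a group. With centring on the 10 reference genes the counts were 2803 higher and 6206 lower. A change of at least 2-fold was called for 3017 genes upwards and 1483 downwards, 24.3% and 11.9% of those tested and 36.2% together. All 3 values at 24 h lay above all 3 at 4 h for 38% of the genes and below them for 36.3%. Changes of 8-fold or more were called for 347 genes upwards and 328 downwards, and of 32-fold or more for 53 and 46.

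The largest rise was that of Cldn4, a tight junction claudin found mainly in duct epithelium. Its values were 1.06, 0.028 and 0.35 at 4 h and 9.18, 9.62 and 10.20 at 24 h, a change of 9.19 ± 0.52 (adjusted p = 4.85e-08). Anxa3, a calcium-dependent membrane-binding annexin, had values of 0.027, 0.086 and 0.091 at 4 h and 8.78, 8.94 and 10.02 at 24 h and a change of 9.18 ± 0.33 (adjusted p = 1.68e-09). In both genes the 4 h arrays lay at 1.06 or less and all 24 h arrays above 8. Sox4, a transcription factor of progenitor cells, had values of 0.059, 0.10 and 0.59 at 4 h and 7.92, 8.16 and 9.57 at 24 h, although its 6 probe sets gave changes between 0.12 and 8.30. The secreted matricellular protein Ccn2 was uneven at 4 h, with values of 0.82, 0.16 and 3.55 at 4 h and 9.09, 9.49 and 9.86 at 24 h. Its change was 7.97 ± 0.62 (adjusted p = 5.34e-07), and it was 7.29 without the second 4 h array and 8.99 without the third. The serpin Serpinb9g, an inhibitor of serine proteases, changed by 8.52 ± 0.26, and the processing enzyme carboxypeptidase E (Cpe) by 7.76 ± 0.29. S100a6, a small calcium-binding protein, had values of 3.08, 0.30 and 3.63 at 4 h and 9.85, 9.84 and 10.43 at 24 h, with a change of 7.70 ± 0.91 that was 6.69 without the second and 8.35 without the third 4 h array. Ndufa4l2, a mitochondrial protein known as a hypoxia target, had a change of 7.82 ± 0.51, which was 8.49 without the first 4 h array. The remaining genes among the 12 largest rises were Fads3, a member of the fatty acid desaturase family, at 7.49, the mitochondrial ATP-magnesium carrier Slc25a24 at 7.33, platelet-type phosphofructokinase (Pfkp) at 7.30 and the microtubule-associated Dpysl2 at 7.12. The probe sets of Pfkp ranged from 1.09 to 7.30 and those of Dpysl2 from -0.09 to 7.12. With the mean of all probe sets of a gene Fads3 changed by 5.95 and Slc25a24 by 6.00.

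The largest fall was that of Upp2, a uridine phosphorylase of the liver, with values of -0.95, -1.76 and -0.69 at 4 h and -8.91, -8.63 and -7.79 at 24 h and a change of -7.31 ± 0.42 (adjusted p = 5.13e-08). Its 3 probe sets gave changes of -7.31 to -5.65. Abcg5, a subunit of the pump that sends sterols into bile, had values of 0.072, -1.33 and 0.58 at 4 h and -7.93, -8.21 and -5.26 at 24 h, a change of -6.91 ± 0.90 (adjusted p = 3.46e-05) that was -7.85 without the third 24 h array. Every 24 h array lay below every 4 h array for both genes. Acsm3 and Acsm5, medium-chain acyl-CoA synthetases of mitochondria, changed by -6.71 and -6.26. Abat, which breaks down the transmitter GABA, fell by 6.36 on one probe set while the other gave -0.09. Bbox1, the last enzyme of carnitine synthesis, changed by -6.03, and the aldehyde dehydrogenase Aldh8a1 by -5.89. The flavin monooxygenase Fmo5 had values of -0.52, 0.58 and -1.37 at 4 h and -7.82, -4.45 and -7.70 at 24 h, a change of -6.22 that was -7.33 without the second 24 h array. Fmn2, an actin nucleator, took another course: its values were 4.16, 3.09 and 3.40 at 4 h and -3.02, -2.28 and -3.04 at 24 h, above the fresh level at 4 h and below it at 24 h. Lin7a, a scaffold protein, changed by -6.48, the innate immune regulator Nlrp12 by -6.38 and the bile acid feedback repressor Nr0b2 by -6.09. With the mean of all probe sets of a gene Lin7a changed by -4.66, Fmn2 by -4.69, Fmo5 by -4.64 and Bbox1 by -5.27.

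**Figure D1:**
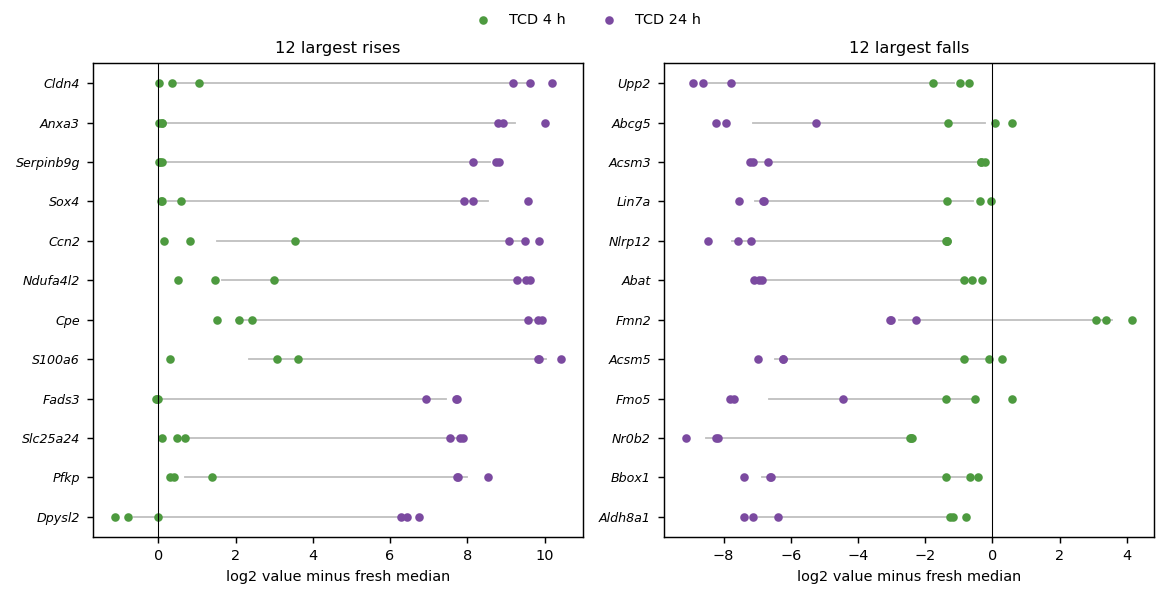
The plot shows the value of each of the 12 genes with the largest rise and the 12 with the largest fall on every array, in log2 units relative to the median of fresh cells. Green points are the 3 monolayer arrays at 4 h, purple points the 3 at 24 h, and the grey line joins the group means. The points of the 2 times do not overlap for these 24 genes, which was part of how they were chosen.

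The genes were then read by function, in 45 lists of pathways and 8 lists of cell type markers. The lists were written with earlier results of these data known, so counts are given as a description beside the shares over all genes tested. The lists with the lowest medians were those of amino acid breakdown, bile acid handling, the urea cycle and the periportal programme. The periportal list shares members with those of amino acid breakdown and the urea cycle. Integrins, tubulin, actin, cytosolic heat shock, and glycolysis with hypoxia genes had the highest medians. These bulk arrays cannot tell fewer cells that express a gene from less RNA of it per cell.

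**Figure D2:**
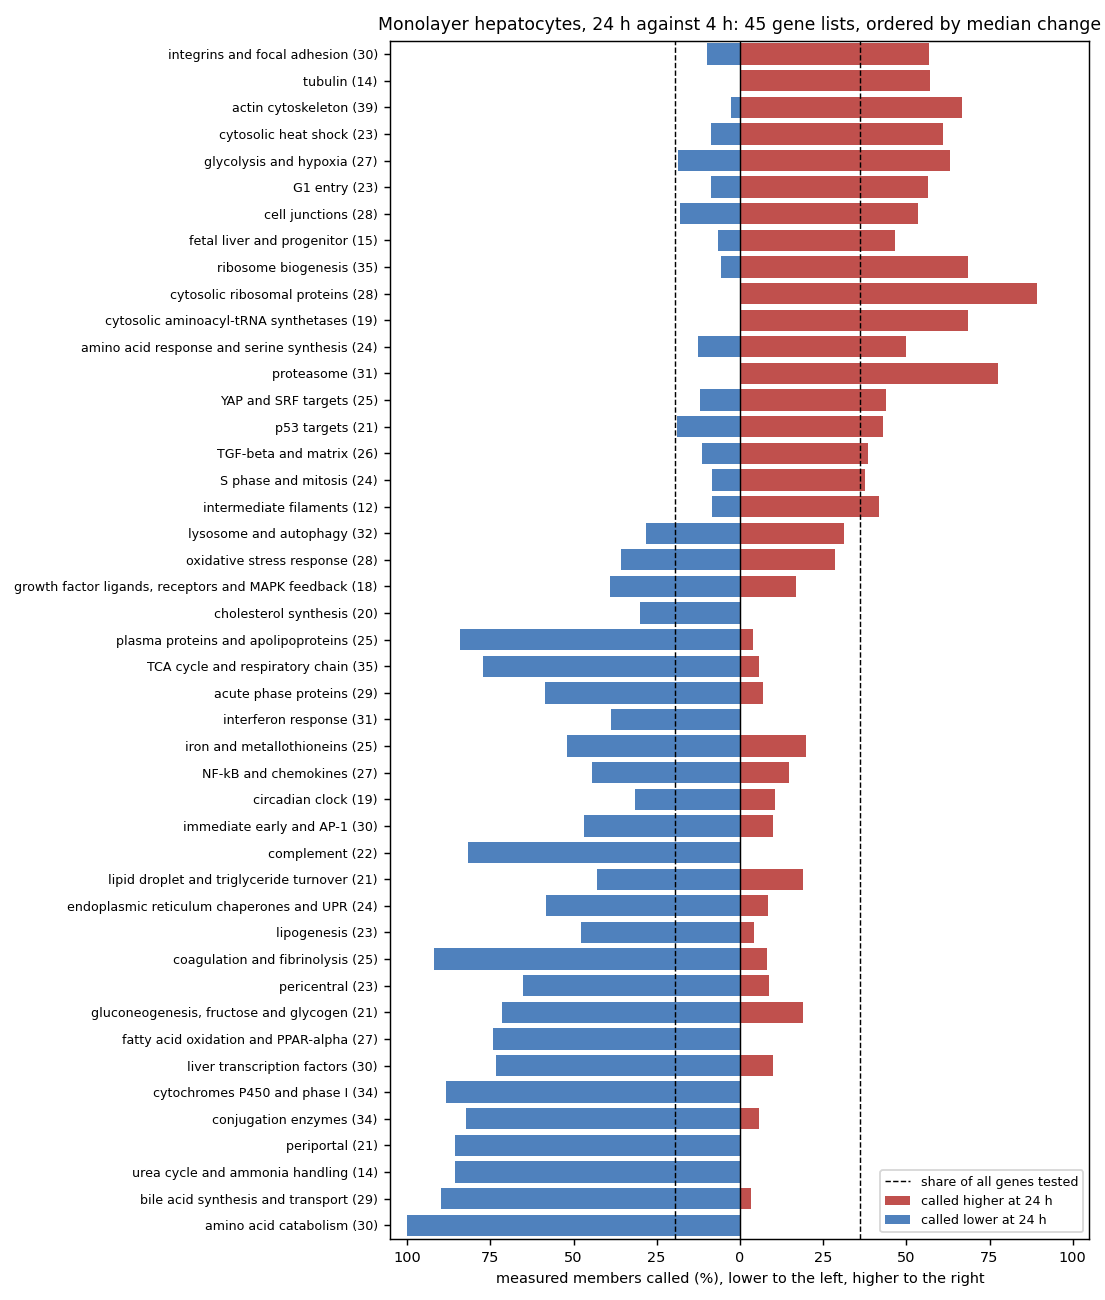
For each of the 45 pathway lists, the bars give the percent of its measured members that were higher (to the right) or lower (to the left) at 24 h than at 4 h in monolayers, ordered by the median change. Dashed lines mark the same shares over all genes tested, 36.1% higher and 19.5% lower.

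Bile acid genes fell almost throughout the list, from synthesis to uptake and export: 26 of 29 measured members were lower at 24 h and 1 was higher, with a median change of -2.81. Cyp7a1, the rate-limiting enzyme of bile acid synthesis, had values of -2.46, -1.55 and -2.77 at 4 h and -7.95, -7.94 and -7.99 at 24 h, a change of -5.70 ± 0.51 (adjusted p = 1.54e-06). Its 4 h values were already below fresh cells, and its 24 h values lay within 0.05 of each other. Since the values hold no absolute level, they cannot tell whether this or other large falls reached the floor of the array. Among the other enzymes, Cyp8b1, which sets the ratio of cholic acid to other bile acids, changed by -4.87, the conjugating enzyme Baat by -5.24, the reductase Akr1d1 by -4.47 and the mitochondrial sterol hydroxylase Cyp27a1 by -1.12. The sinusoidal uptake carriers followed, with Slc10a1 at -3.33, Slco1a4 at -5.03 and Slco1b2 at -4.22. The canalicular bile salt pump Abcb11 changed by -3.77 and Abcg8, the partner of Abcg5, by -3.60. The receptor that senses bile acids, Nr1h4, fell by 3.89. Its target Nr0b2 represses Cyp7a1, and its values were -2.45, -2.38 and -2.43 at 4 h and -8.24, -9.12 and -8.16 at 24 h. Abcc4, a basolateral exporter, was the member that rose, by 1.86.

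Amino acid breakdown was the list with the most uniform course, since all 30 measured members fell, with a median change of -3.26. Tdo2, the first enzyme of tryptophan breakdown, had values of -0.61, -0.88 and -0.40 at 4 h and -6.64, -5.70 and -5.63 at 24 h and a change of -5.36 ± 0.30 (adjusted p = 4.87e-08). Histidine ammonia-lyase (Hal) had values of -0.94, -0.53 and -0.19 at 4 h and -6.30, -5.26 and -5.70 at 24 h. Kynureninase (Kynu) changed by -5.01, and by -3.37 with the mean of its probe sets. On the chosen probe sets the 4 h values of these genes stayed within 1 log2 unit of fresh cells, and the 24 h values lay between -6.64 and -4.97. Tyrosine aminotransferase (Tat) changed by -3.58, the methionine adenosyltransferase Mat1a by -3.51 and cystathionine beta-synthase (Cbs) by -3.51. The smallest fall was that of the glycine methyltransferase Gnmt, at -0.91. In the urea cycle and ammonia list, 12 of 14 measured members fell and none rose, with a median of -2.25. Car5a, the mitochondrial carbonic anhydrase that supplies bicarbonate, had values of -1.77, -1.78 and -1.54 at 4 h and -7.03, -6.00 and -6.53 at 24 h. The entry enzyme Cps1 changed by -2.89 ± 0.35 (adjusted p = 1.81e-05) from values of -0.21, 0.12 and -0.047 at 4 h and -3.01, -2.58 and -3.22 at 24 h. The ornithine carrier Slc25a15 changed by -3.38, ornithine transcarbamylase (Otc) by -2.60 and arginase (Arg1) by -2.42, while Ass1 at -0.47 and Glud1 at -0.30 did not pass the test.

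Glucose release and glycogen genes fell in 15 of 21 measured members and rose in 4, with a median of -1.46. Pck1, the gatekeeper of gluconeogenesis, had values of -0.58, -1.51 and -0.89 at 4 h and -6.32, -6.57 and -7.10 at 24 h and a change of -5.67 ± 0.35 (adjusted p = 8.27e-08), though 1 of its 3 probe sets gave -0.33. Glucose-6-phosphatase (G6pc), the last step of glucose release, had values of -2.16, -1.69 and -2.41 at 4 h and -5.43, -6.42 and -6.34 at 24 h. The glycogen-targeting subunit Ppp1r3c changed by -4.26 ± 0.64 (adjusted p = 0.000117). All 24 h arrays lay below all 4 h arrays for these 3 genes. The coactivator Ppargc1a changed by -3.75, liver glycogen synthase (Gys2) by -3.55 and the liver glucose carrier Slc2a2 by -2.51. The members that rose were the mitochondrial Pck2 at 1.01, the phosphoglucomutases Pgm1 and Pgm2 at 0.66 and 1.28, and the branching enzyme Gbe1 at 1.31.

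Glycolysis and hypoxia genes moved the other way: 17 of 27 measured members rose and 5 fell, with a median of 1.15, and 11 of 22 rose and 6 fell without probe sets that share sequence with other genes. The low-affinity liver glucokinase aside, most tissues use the hexokinases Hk1 and Hk2, which changed by 4.71 and 2.69. At the next regulated step, Pfkp had values of 0.40, 0.31 and 1.39 at 4 h and 7.75, 7.72 and 8.53 at 24 h. At the end of the pathway the pyruvate kinase Pkm changed by 3.43, while Pklr, the liver form counted with the gluconeogenesis list, fell by 1.28. The lactate exporter Slc16a3 was at the fresh level at 4 h and far above it at 24 h, with values of -0.0015, 0.077 and 0.055 at 4 h and 5.70, 5.38 and 5.92 at 24 h and a change of 5.62 ± 0.20 (adjusted p = 1.68e-09). Plod2, a collagen lysyl hydroxylase and known hypoxia target, had values of 0.066, 0.088 and 0.063 at 4 h and 6.75, 7.15 and 7.55 at 24 h, with a change of 7.08 ± 0.41 (adjusted p = 5.61e-08). The stress gene Ndrg1 changed by 3.63, the oxygen sensor Egln1 by 1.88 and lactate dehydrogenase A (Ldha) by 0.30. Members that fell were Hif1a, the oxygen-regulated transcription factor, at -1.56, the glucose carrier Slc2a1 at -1.72, the ankyrin repeat gene Ankrd37 at -2.15, the muscle phosphofructokinase Pfkm at -1.22 and Pfkfb3, which makes an activator of phosphofructokinase, at -3.35. Vegfa, the angiogenic factor, did not pass the test at -0.53.

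The HIF word, TACGTG or GACGTGC on either strand, stood within 250 bases before the start of 10 of the 25 genes of this list with a promoter in the RefSeq table (40%, against 4.87% of the tested genes and 3.87% of all genes with a promoter). This pair of list and word was picked after the shares over 45 lists and all words had been seen, so no test was made. Of the 10 genes 6 rose, 3 fell and 1 was not called. The letters ACGTG are shared with the E box CACGTG, but no stretch of 6 bases is both. A match says only that the letters are there. The sequences around the word in the genes with the largest changes each way are shown, 5' to 3' on the gene's strand in build GRCm38.p6. Here and in the later windows capitals mark the first copy of the word in the promoter, and any further or overlapping copy stays in lower case.
Slc16a3: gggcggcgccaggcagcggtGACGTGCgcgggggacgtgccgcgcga
P4ha2: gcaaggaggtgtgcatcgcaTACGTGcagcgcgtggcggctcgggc
Egln1: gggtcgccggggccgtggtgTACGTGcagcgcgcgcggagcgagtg
Pfkfb3: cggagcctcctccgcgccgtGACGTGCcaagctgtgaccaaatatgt
Ankrd37: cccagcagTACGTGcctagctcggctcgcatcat
These windows lie at chr11:120949019-120949065 (plus strand), chr11:54100825-54100870 (plus strand), chr8:124949298-124949343 (minus strand), chr2:11553964-11554010 (minus strand) and chr8:46000067-46000100 (minus strand). The first base of the word is 28, 79, 69, 61 and 242 bases before the start, in the same order. Of the 5 genes printed, Slc16a3, the prolyl hydroxylase P4ha2 at 3.87 and Egln1 rose, and Pfkfb3 and Ankrd37 fell.

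**Figure D3:**
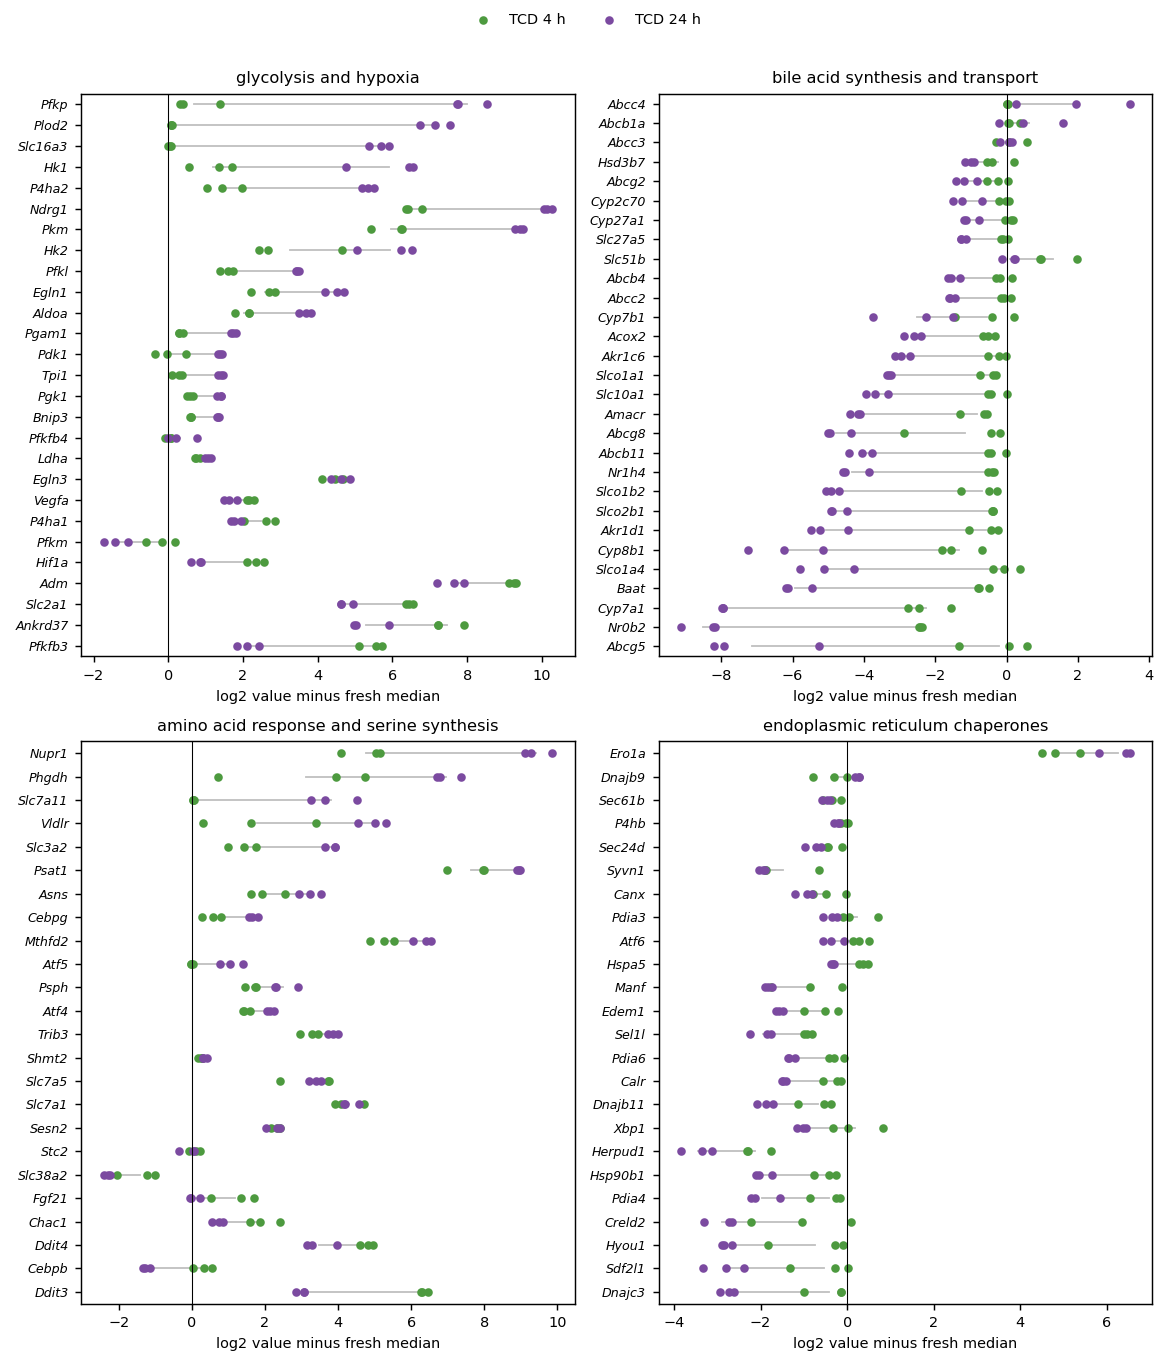
Values on each monolayer array, in log2 units relative to the median of fresh cells, for all measured members of 4 lists: glycolysis and hypoxia, bile acid synthesis and transport, amino acid response and serine synthesis, and endoplasmic reticulum chaperones. Green points are the 4 h arrays and purple points the 24 h arrays; in the bile acid panel 26 of 29 members were lower at 24 h, and in the glycolysis panel 17 of 27 were higher.

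Of the fatty acid oxidation genes 20 of 27 measured members fell and none rose (median -1.66). Decr1, which processes unsaturated acyl chains, had values of -0.39, -1.07 and -0.061 at 4 h and -5.75, -5.26 and -5.29 at 24 h, and its 2 probe sets gave -4.92 and -1.77. Cpt1a, the gate of fatty acid entry into mitochondria, had values of 0.26, -0.92 and 0.27 at 4 h and -3.12, -4.25 and -3.16 at 24 h and a change of -3.38 ± 0.49 (adjusted p = 8.24e-05). Ppara, the transcription factor that drives this pathway in fasting, fell by 2.85. The thioesterase Acot1 fell by 3.61, which was -2.99 without the first and -4.22 without the second 24 h array. In the lipogenesis list 11 of 23 members fell, 11 were not called and 1 rose, the citrate lyase Acly at 1.08. The median of this list was -1.05, and -0.40 both with the probe set of each gene chosen from the 9 other arrays and without probe sets of shared sequence. Thrsp, a lipogenic protein responsive to thyroid hormone and carbohydrate, changed by -3.80 ± 0.40 (adjusted p = 6.59e-06), and the triglyceride-forming Dgat2 by -2.56 ± 0.23 (adjusted p = 1.88e-06). The fatty acid synthase Fasn at -1.09 and the desaturase Scd1 at 0.16 did not pass the test. Elovl6, a chain-lengthening enzyme, fell by 1.78 on the chosen probe set, but on the probe set chosen from the 9 other arrays it changed by -0.12, which was not called.

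In cholesterol synthesis 6 of 20 members fell (30%, against 19.5% of all genes tested) and none rose, with a median of -0.34. The median was -0.91 with 10 lower under centring on the reference genes, and -0.09 with 4 lower with the mean of all probe sets of a gene. Ebp, a sterol isomerase, fell by 1.41 with values of -0.56, -0.24 and -0.23 at 4 h and -1.77, -1.58 and -1.90 at 24 h. Sc5d and Lss changed by -2.66 and -1.66, but their calls were lost with the mean of all probe sets (-1.09 and -0.15), and that of Lss also without the second 4 h array (-1.33, adjusted p = 0.0547). Among genes of lipid droplets 9 of 21 fell and 4 rose, and without probe sets of shared sequence only 4 fell. The monoglyceride lipase Mgll had values of -0.46, -0.25 and -0.48 at 4 h and -5.17, -4.84 and -4.22 at 24 h, and the lipolysis inhibitor G0s2 changed by -2.76. The lipoprotein receptor Vldlr had values of 1.62, 0.30 and 3.40 at 4 h and 4.53, 5.0 and 5.30 at 24 h and a change of 3.17 ± 1.06, whose call was lost under 4 of 16 alternatives, among them leaving out the second 4 h array (2.43, adjusted p = 0.0965). Cidea, a droplet-fusion protein typical of brown fat, rose, with values of 0.51, 0.11 and 0.34 at 4 h and 4.87, 4.78 and 5.16 at 24 h, a change of 4.62 ± 0.36 (adjusted p = 5.64e-07). In the TCA cycle and respiratory chain 27 of 35 members fell and 2 rose, with a median of only -0.64. Fumarase (Fh1) had values of -0.061, -0.15 and -0.073 at 4 h and -1.56, -1.51 and -1.68 at 24 h, and the succinate dehydrogenase subunit Sdha changed by -1.40 ± 0.12. The ATP synthase subunit Atp5a1 changed by -1.58 ± 0.38 with values of -0.21, 1.46 and -0.22 at 4 h and -1.40, -1.18 and -1.14 at 24 h, so its second 4 h array stood above the other 2. The members that rose were citrate synthase (Cs) at 0.96 and malate dehydrogenase (Mdh2) at 0.98.

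Drug metabolism fell broadly. Of 34 measured cytochrome P450 and other phase I genes, 30 fell and none rose (median -1.81), and of 34 conjugation genes 28 fell and 2 rose (median -1.97). Aldehyde oxidase Aox3 had values of -0.40, -0.89 and -0.22 at 4 h and -4.81, -5.21 and -4.64 at 24 h and a change of -4.38 ± 0.26 (adjusted p = 6.04e-08). Fmo1, a flavin monooxygenase, changed by -4.10 ± 0.46, and Cyp2j5, a fatty acid epoxygenase, by -4.07. The drug-clearing Cyp3a11 and the ethanol-oxidising Cyp2e1 moved much less than the median of their list. Cyp3a11 had values of -0.15, 0.27 and 0.11 at 4 h and -0.57, -0.48 and -0.34 at 24 h, a change of -0.54 ± 0.11 (adjusted p = 0.00105). Cyp2e1 changed by -0.42. For Cyp3a11 each 24 h array still lay below each 4 h array. Cyp1a1, a target of the aryl hydrocarbon receptor, did not pass the test at 0.14. Among conjugation enzymes the glutathione transferase Gsta3 changed by -3.55 ± 0.42, the thiopurine methyltransferase Tpmt by -3.47 ± 0.29, and the sulfotransferase Sult1d1 by -3.28. Gstm7 fell by 3.49 on one probe set and gave -0.30 on the other. Ugdh, which makes the sugar donor for glucuronidation, rose by 1.10.

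Secreted liver proteins mostly fell, by unequal amounts. In the plasma protein and apolipoprotein list 21 of 25 members fell and 1 rose, with a median of -0.44. Albumin (Alb) did not pass the test, with values of -0.049, 0.11 and 0.12 at 4 h and -0.095, -0.048 and -0.031 at 24 h and a change of -0.12 ± 0.075 (adjusted p = 0.203). It was called lower, at -0.68, with centring on the reference genes. Transthyretin (Ttr) changed by -0.34 and apolipoprotein A1 (Apoa1) by -0.38. In contrast Apoa5, which promotes triglyceride clearance, had values of -0.36, -0.49 and -0.23 at 4 h and -4.59, -3.91 and -3.94 at 24 h, and Apob, the core protein of very low density lipoprotein, values of 0.94, 0.89 and 1.20 at 4 h and -1.70, -1.98 and -1.45 at 24 h. Apob lay above the fresh level on each 4 h array and below it on each 24 h array. Coagulation genes fell in 23 of 25 members (median -1.28). Heparin cofactor Serpind1 had values of -0.29, -0.49 and -0.23 at 4 h and -4.56, -4.21 and -4.05 at 24 h and prekallikrein (Klkb1) a change of -3.79 ± 0.21, while the fibrinogen chains Fga, Fgb and Fgg changed by -0.66, -0.67 and -0.64. The 2 members that rose belong to fibrinolysis: the plasminogen activator Plat, with values of 0.12, 0.14 and 0.14 at 4 h and 1.90, 4.35 and 4.61 at 24 h, and the urokinase receptor Plaur at 3.00. The rise of Plat was 3.49 ± 0.51, and 4.35 without the first 24 h array. Of 22 complement genes 18 fell and none rose (median -0.95). The lectin pathway genes Mbl1, Masp1 and Masp2 fell most, with changes of -2.86, -2.68 and -2.64. On the probe set chosen from the 9 other arrays Masp1 changed by -0.84, with an adjusted p of 0.105.

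Most transcription factors that maintain liver identity fell, 22 of 30 measured with 3 rising and a median of -1.70. Hnf4a, the central regulator of hepatocyte genes, stood at the fresh level at 4 h and below it at 24 h, with values of -0.017, -0.13 and 0.24 at 4 h and -1.93, -2.70 and -2.47 at 24 h and a change of -2.40 ± 0.23 (adjusted p = 2.7e-06). All 4 of its probe sets fell. Cebpa, which restrains growth in mature hepatocytes, was already low at 4 h, with values of -1.52, -1.47 and -1.09 at 4 h and -3.16, -3.69 and -3.28 at 24 h and a change of -2.02 ± 0.18 (adjusted p = 1.34e-06). The estrogen receptor Esr1 changed by -5.31, and the xenobiotic receptors Nr1i2 and Nr1i3 by -4.75 and -4.20. The values of Nr1i2 were 0.37, -0.25 and 0.35 at 4 h and -4.40, -5.07 and -4.30 at 24 h. Onecut1, a factor of liver development, fell by 4.03. Foxa1 and Foxa2, pioneer factors of endoderm, rose by 2.15 and 2.03, while Foxa3 fell by 2.70. The aryl hydrocarbon receptor Ahr rose by 0.65.

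In the liver lobule hepatocytes near the portal vein and near the central vein express different genes, and members of both programmes fell. Of 21 periportal genes 18 fell and none rose (median -2.12), and of 23 pericentral genes 15 fell and 2 rose (median -1.36). The periportal list shares Cps1, Ass1, Asl, Arg1, Otc and Gls2 with the urea cycle list. It also shares Hal, Sds and Tat with amino acid breakdown, and Pck1, G6pc and Fbp1 with glucose release, so the counts of these lists are not independent. The cationic amino acid carrier Slc7a2, periportal, had values of -1.35, -2.35 and -0.87 at 4 h and -6.12, -7.93 and -6.65 at 24 h. The pericentral glutamate carrier Slc1a2 had values of -1.06, -2.24 and -1.35 at 4 h and -7.45, -6.64 and -7.33 at 24 h, and its 3 probe sets gave changes of -5.59 to -1.01. Glutamine synthetase (Glul), which marks the cells next to the central vein, fell by 2.86. Lhpp, a phosphatase, changed by -3.11 ± 0.30. The Wnt targets Axin2 at -0.083 and Lgr5 at -0.14 did not pass the test.

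Of 30 immediate early genes 14 fell, 3 rose and the others were not called (median -0.93). The cytokine-signalling inhibitor Socs3 had values of -3.02, -3.30 and -2.44 at 4 h and -8.35, -8.10 and -8.39 at 24 h and a change of -5.36 ± 0.52 (adjusted p = 3.17e-06). Fosb, a partner of Jun in AP-1, had values of -0.094, -0.0056 and 0.23 at 4 h and -3.72, -3.09 and -3.91 at 24 h, and Zfp36, which destabilises inflammatory mRNAs, values of -1.55, -0.95 and -1.10 at 4 h and -4.50, -4.56 and -5.06 at 24 h. All 3 were lower on each 24 h array than on each 4 h array, and Fosb was near the fresh level at 4 h. Fos changed by -3.05, Atf3 by -2.35 and Egr1 by -2.30. Jun had values of -1.0, -0.87 and -0.92 at 4 h and -1.33, -1.40 and -1.62 at 24 h, a change of -0.52 ± 0.17 (adjusted p = 0.0186). Its call was lost without the second 4 h array (-0.49, adjusted p = 0.0506), without the third 24 h array (-0.43) and with the mean of its probe sets (-0.27). Myc did not pass the test, with values of 1.46, 1.79 and 1.78 at 4 h and 2.09, 1.78 and 1.83 at 24 h, and its change of 0.22 was -0.35 with centring on the reference genes, also not called. Fosl2 and Klf4 rose, by 3.48 and 2.52.

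Of 27 genes of NF-kB and chemokines 12 fell and 4 rose (median -0.79). Cxcl12, a chemokine that holds blood stem cells and lymphocytes, had values of -3.39, -2.61 and -4.04 at 4 h and -9.13, -8.19 and -9.26 at 24 h. The pattern receptor Tlr2 had values of 4.74, 4.71 and 5.35 at 4 h and 0.68, -0.47 and 2.12 at 24 h, so it was high on each 4 h array and nearer to the fresh level at 24 h. Its change was -4.16, -3.54 without the second and -4.83 without the third 24 h array. The neutrophil attractants Cxcl1 and Cxcl2 changed by -3.70 and -3.13, and the adhesion molecule Icam1 by -3.63. Cxcl16, a membrane-bound chemokine, rose, with values of 1.33, 0.71 and 1.30 at 4 h and 5.26, 4.64 and 5.98 at 24 h. In the acute phase list 17 of 29 members fell and 2 rose. Saa4 had values of -1.12, -0.92 and -1.91 at 4 h and -5.38, -5.29 and -7.05 at 24 h and hepcidin (Hamp) a change of -2.32, while Saa1 at -0.11 and Lcn2 at -0.075 did not pass the test. Steap4, a metalloreductase induced by inflammation, had values of 3.36, 2.87 and 3.13 at 4 h and -1.56, -1.52 and -1.05 at 24 h, above fresh cells at 4 h and below them at 24 h. Of 31 interferon genes 12 fell and none rose. The guanylate-binding protein Gbp6 had values of 2.90, 2.66 and 4.31 at 4 h and -1.58, -1.76 and 0.095 at 24 h, with a change of -4.37 that was -4.96 without the third 24 h array. The interferon-induced GTPase Iigp1 changed by -3.33 ± 0.36 (adjusted p = 8.57e-06). The immunoproteasome subunits Psmb8 and Psmb9 changed by -2.54 and -2.68.

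Growth factor genes leaned downwards, with 7 of 18 lower and 3 higher, 38.9% and 16.7% against 19.5% and 36.1% of all genes tested. The receptor Egfr fell by 2.84, with values of -1.65, -2.64 and -0.70 at 4 h and -5.03, -4.37 and -4.11 at 24 h, and 4 of its 5 probe sets fell. The feedback phosphatase Dusp6 had values of 0.58, 1.17 and 0.27 at 4 h and -1.93, -1.79 and -2.23 at 24 h, and Dusp5, which acts on nuclear ERK, had values of 4.13, 4.17 and 4.22 at 4 h and 1.68, 2.22 and 2.22 at 24 h. Dusp5 was thus high at 4 h and remained above the fresh level at 24 h. The ligands Hbegf and Btc changed by -1.75 and -1.71, and Tgfa rose by 2.01.

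Genes of protein production rose together by small amounts. Of 28 cytosolic ribosomal protein genes 25 rose and none fell (median 0.66), though with centring on the reference genes 6 rose and 1 fell, and without probe sets that share sequence with other genes 9 of 13 rose. Rpl13a had values of 0.38, -0.24 and -0.14 at 4 h and 1.74, 1.45 and 1.39 at 24 h and Rpl14 a change of 1.45 ± 0.25. Rps9 had values of 0.85, -0.12 and 2.02 at 4 h and 2.44, 2.39 and 2.83 at 24 h, which did not overlap between the times but were widely spread at 4 h. Its change of 1.64 ± 0.59 lost its call under 7 of 16 alternatives, such as leaving out the second 4 h array (1.12, adjusted p = 0.143). Of 35 genes of ribosome biogenesis 24 rose and 2 fell (median 0.71), and 13 rose and 4 fell with centring on the reference genes. The nucleolar chaperone Npm1 had values of 0.65, 0.22 and 0.57 at 4 h and 2.66, 2.71 and 2.54 at 24 h and a change of 2.15 ± 0.11 (adjusted p = 3.13e-08). Nhp2, a part of the snoRNPs that modify ribosomal RNA, had values of 0.53, 0.28 and 0.43 at 4 h and 2.21, 2.28 and 2.11 at 24 h, and Mybbp1a, a nucleolar Myb-binding protein, a change of 1.72 ± 0.45. Nucleolin (Ncl) changed by 1.70. The members that fell were Heatr1 at -1.55 and Pes1 at -1.05.

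Of 19 cytosolic aminoacyl-tRNA synthetases, which load amino acids onto tRNA, 13 rose and none fell (median 0.66), while centring on the reference genes gave 6 higher and 5 lower, and leaving out probe sets of shared sequence 8 of 18 higher and 1 lower. The glycine enzyme Gars had values of 1.20, 0.77 and 1.04 at 4 h and 3.44, 2.89 and 3.11 at 24 h, a change of 2.14 ± 0.15 (adjusted p = 2.01e-07). The valine enzyme Vars changed by 1.82 ± 0.38 and the serine enzyme Sars by 1.46 ± 0.13. The alanine enzyme Aars at -0.19 did not pass the test. In the list of the amino acid response and serine synthesis 12 of 24 members rose and 3 fell (median 0.65), and 8 rose and 9 fell with centring on the reference genes. Without probe sets of shared sequence 6 of 18 rose and 3 fell. The stress-induced chromatin protein Nupr1 was well above fresh cells at 4 h and rose again, with values of 5.13, 4.08 and 5.04 at 4 h and 9.12, 9.86 and 9.27 at 24 h and a change of 4.67 ± 0.39 (adjusted p = 9.75e-07). Phgdh, the first enzyme of serine synthesis, had values of 4.74, 0.72 and 3.94 at 4 h and 7.37, 6.70 and 6.78 at 24 h. Its change of 3.82 ± 0.76 was 4.63 without the first 4 h array and 2.62 without the second. The cystine carrier Slc7a11 had values of 0.02, 0.05 and 0.035 at 4 h and 3.26, 4.52 and 3.65 at 24 h, and asparagine synthetase (Asns) changed by 1.21. The transcription factor Atf4, at the head of this response, changed by 0.67. Ddit3, the stress factor also called CHOP, fell by 3.36, and Trib3 at 0.63 and Fgf21 at -1.14 did not pass the test.

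The words of the amino acid response element, TGATGCAAT, TGATGAAAC, TGATGCAAA and TGATGAAAT on either strand, stood in 4 of the 23 promoters found for this list (17.4%, against 0.438% of tested genes and 0.755% of all genes with a promoter). Of these 4 genes 3 rose and Fgf21 was not called. Over all genes with a promoter, such a word stood before 0.282% of those at least 2-fold higher and 0.836% of those at least 2-fold lower. The windows below are shown because they carry the word in the genes that rose, together with that of Gars from the synthetase list, where 2 genes held a word and the other, Aars, was not called (-0.19). The first copy of the word is in capitals, as its reverse complement where it lies on the other strand.
Nupr1: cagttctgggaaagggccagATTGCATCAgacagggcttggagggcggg
Slc7a11: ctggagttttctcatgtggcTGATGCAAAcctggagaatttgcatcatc
Asns: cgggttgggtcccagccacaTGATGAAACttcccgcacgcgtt
Gars: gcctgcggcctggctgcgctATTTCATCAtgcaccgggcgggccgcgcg
They lie at chr7:126625553-126625601 (minus strand), chr3:50443651-50443699 (minus strand), chr6:7693210-7693252 (minus strand) and chr6:55037950-55037998 (plus strand), with the word 111, 66, 23 and 31 bases before the start.

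Chaperones of the cytosol and of the endoplasmic reticulum moved in opposite directions. Of 23 cytosolic heat shock genes 14 rose and 2 fell (median 1.16). The inducible Hspa1a and Hspa1b had values of -0.29, 0.0079 and -1.73 at 4 h and 2.32, 3.65 and 4.45 at 24 h, and -2.01, -4.17 and -1.34 at 4 h and -0.25, 0.87 and 1.09 at 24 h, in that order. Hspa1b started below fresh cells at 4 h, and its change of 3.07 ± 0.77 was 2.24 without the second 4 h array. These 2 genes are near-identical copies, so their probe sets may share signal. The small heat shock protein Hspb1 changed by 2.86 ± 0.53 (adjusted p = 0.000568), Hsp90aa1 by 1.38 and the chaperonin subunit Cct5 by 1.22. Of 24 genes of the endoplasmic reticulum and the unfolded protein response 14 fell and 2 rose (median -1.01). The co-chaperone Dnajc3 had values of -0.15, -0.14 and -1.0 at 4 h and -2.73, -2.61 and -2.93 at 24 h and a change of -2.33 ± 0.32 (adjusted p = 5.48e-05). Sdf2l1 had values of -0.29, 0.029 and -1.31 at 4 h and -2.79, -2.39 and -3.33 at 24 h, and Hyou1, which helps the chaperone Hspa5 exchange nucleotide, a change of -2.07 ± 0.60. Hspa5 changed by -0.71, Hsp90b1 by -1.47 and the transcription factor Xbp1 by -1.23. The oxidase Ero1a and the co-chaperone Dnajb9 rose, by 1.37 and 0.60.

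A CCAAT box, taken as CCAATCA or CCAATGA or CCAATAG or CCAATGG or CCAATCG or CCAATAA or CCAATCC on either strand, stood before the start of 17 of the 21 promoters found for the endoplasmic reticulum list (81%). Of all tested genes with a promoter 27.7% hold such a word, and 22.7% of all genes. The share was not particular to this list. It was 81.2% in cholesterol synthesis, and 80.0% in S phase and mitosis, where 9 genes rose and 2 fell. Of the 17 genes 11 fell, 1 rose and 5 were not called. The 3 windows shown are those of the 2 members with the largest falls and of Dnajb9, which rose, with the word in capitals on the strand of the gene.
Dnajc3: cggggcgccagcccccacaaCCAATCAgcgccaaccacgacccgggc
Sdf2l1: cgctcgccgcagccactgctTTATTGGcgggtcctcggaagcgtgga
Dnajb9: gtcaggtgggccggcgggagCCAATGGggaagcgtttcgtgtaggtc
They lie at chr14:118937807-118937853 (plus strand), chr16:17132527-17132573 (minus strand) and chr12:44210107-44210153 (minus strand). Among all genes with a promoter that rose at least 2-fold 25.8% hold a CCAAT word, and among those that fell at least 2-fold 33.5%.

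Proteasome genes rose in 24 of 31 members and fell in none (median 0.58), but with centring on the reference genes 6 rose and 8 fell. The regulatory subunit Psmd8 had values of 0.43, 0.37 and 0.55 at 4 h and 2.26, 2.21 and 2.20 at 24 h, a change of 1.77 ± 0.079 (adjusted p = 9.48e-09), and the deubiquitinase subunit Psmd14 changed by 1.28 ± 0.11. Psmd11, a scaffold of the lid, changed by 1.54 ± 0.26, but its 6 probe sets gave -0.39 to 1.54. Lysosome and autophagy genes split, with 10 of 32 higher and 9 lower, 31.2% and 28.1% against 36.1% and 19.5% of all genes tested. The counts were 2 higher and 16 lower with centring on the reference genes, and 6 and 8 with only the 6 monolayer arrays in the fit. Their median of 0.19 turned negative with that centring and without probe sets of shared sequence. The proton pump subunits Atp6v1a, Atp6v1h and Atp6v1b2 rose by 0.54, 0.60 and 0.64. The protease Ctsl was high at 4 h and back near the fresh level at 24 h, with values of 4.42, 4.48 and 3.79 at 4 h and -0.70, 0.054 and 0.041 at 24 h, although its second probe set gave -0.08. Cathepsins Ctsh and Ctsc changed by -1.85 and -1.83.

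Of 28 genes of the oxidative stress response 8 rose and 10 fell, and 5 rose and 18 fell with centring on the reference genes. Pgd, an NADPH-making enzyme of the pentose phosphate path, had values of 0.90, -0.17 and 0.71 at 4 h and 4.17, 4.00 and 4.18 at 24 h, a change of 3.64 ± 0.22 (adjusted p = 8.27e-08), and the carbonyl reductase Cbr3 changed by 3.15. The transcription factor of this response, Nfe2l2, changed by -3.04 and heme oxygenase (Hmox1) by -1.52. Metallothionein Mt1, which binds zinc, had values of -1.24, -1.56 and -1.16 at 4 h and -3.65, -4.72 and -5.08 at 24 h, while its other probe set gave -0.08. In the list of iron and metallothioneins 13 of 25 members fell and 5 rose. The manganese exporter Slc30a10 had values of 0.26, 1.58 and 0.23 at 4 h and -3.42, -1.75 and -4.18 at 24 h, and its change of -3.80 was -4.49 without the second 24 h array. Id3, a target of BMP signals, had values of 1.63, 1.74 and 2.14 at 4 h and -1.27, -1.39 and -1.41 at 24 h, above fresh cells at 4 h and below them at 24 h, while its relative Id1 rose by 2.20 and the iron exporter Slc40a1 by 1.74. Of 19 circadian clock genes 6 fell and 2 rose. Hlf, an output factor of the clock, had values of -1.33, -1.82 and -1.64 at 4 h and -4.18, -5.48 and -5.05 at 24 h, and Per2 changed by -2.24 ± 0.63 (adjusted p = 0.009). Per2 was called on 1 of its 3 probe sets, and the core clock factor Arntl at 2.36 did not pass the test. Rora, a receptor that drives Arntl, changed by -1.68 ± 0.28, but its 7 probe sets disagreed, with 5 lower and 1 higher.

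In the list of cell cycle entry, which holds inhibitors of entry as well as its drivers, 13 of 23 genes rose and 2 fell (median 1.01). The count therefore does not say whether entry was favoured. The retinoblastoma relative Rbl1 had values of -0.54, -0.59 and -0.61 at 4 h and 2.99, 3.10 and 3.61 at 24 h and a change of 3.81 ± 0.32 (adjusted p = 1e-06), though its other probe set gave 0.02. The cell cycle inhibitor Cdkn2b changed by 3.46 ± 0.51 (adjusted p = 0.000103), and by 4.21 without the first 4 h array, and the inhibitor Cdkn1b by 2.12. Cyclin Ccne2 changed by 1.98 and the kinase Cdk2 by 1.37. Cyclin D1 (Ccnd1), the usual mark of hepatocytes that pass into G1, had values of 0.63, -4.03 and 0.14 at 4 h and -4.12, -4.56 and -4.37 at 24 h. The second 4 h array lay with the 24 h arrays, and the change of -3.26 ± 1.08 (adjusted p = 0.022) was -4.74 without it. The call was lost without the first 4 h array (-2.41, adjusted p = 0.092), without the third 4 h array (-2.65, adjusted p = 0.0815), without the second or the third 24 h array and with only the 6 monolayer arrays in the fit.

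In S phase and mitosis 9 of 24 genes rose and 2 fell (median 0.26). The share that rose, 37.5%, was near the 36.1% of all genes tested, and 8.33% fell against 19.5%. Centring on the reference genes gave 9 higher and 10 lower. The median turned negative under that centring and also without the background filter, which 24 of the 33 genes on the array passed. The genes that rose make and load the replication helicase or serve replication itself. Mcm3 had values of 0.09, -0.71 and -0.21 at 4 h and 3.78, 4.38 and 4.73 at 24 h, with a change of 4.58 ± 0.47 (adjusted p = 4.83e-06) that was 2.89 with the mean of its probe sets and 2.77 without probe sets of shared sequence. Mcm2, Mcm5, Mcm6 and Mcm7 changed by 2.60, 2.63, 2.86 and 2.25. The loader Cdt1 had values of -0.44, -2.83 and 0.10 at 4 h and 2.30, 2.59 and 2.97 at 24 h, and its change of 3.68 ± 0.80 was 2.79 without the second 4 h array. The sliding clamp Pcna changed by 1.98. Mitotic genes did not pass the test: Cdk1 was at 0.18, Top2a at -0.18, Foxm1 at -0.045 and Ccnb2 at -0.053. Thymidine kinase (Tk1), a salvage enzyme, had values of -0.39, -0.43 and -0.82 at 4 h and -6.49, -5.20 and -6.89 at 24 h, a change of -5.65.

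The E2F word, TTTCCCGC, TTTGGCGC, TTTGGCGG or TTTCGCGC on either strand, stood in 5 of 18 promoters found for the list of cell cycle entry (27.8%, against 3.64% of tested genes and 2.0% of all genes). Of those 5 genes 4 rose and 1 was not called. The word also stood before 4 genes of S phase and mitosis, of which 3 rose and Cdk1 was not called. The windows of Rbl1, Mcm6 and Cdk1 show the word in genes that rose and in one that did not pass the test.
Rbl1: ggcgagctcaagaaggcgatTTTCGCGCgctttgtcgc
Mcm6: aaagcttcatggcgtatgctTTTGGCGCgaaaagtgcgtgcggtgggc
Cdk1: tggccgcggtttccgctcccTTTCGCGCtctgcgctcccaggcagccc
They lie at chr2:157204535-157204572 (minus strand), chr1:128359788-128359835 (minus strand) and chr10:69353016-69353063 (minus strand), with the word 18, 110 and 131 bases before the start. The pairs of list and word for CCAAT, E2F and the amino acid response element were also picked after their shares were seen.

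Of 21 p53 targets 9 rose and 4 fell (median 0.49), and 6 rose and 9 fell with centring on the reference genes. Without that centring the shares were 42.9% and 19%, near the 36.1% and 19.5% of all genes tested. Phlda3, an inhibitor of Akt, had values of 0.45, 0.11 and 0.018 at 4 h and 5.52, 5.78 and 6.37 at 24 h, a change of 5.69 ± 0.18 (adjusted p = 7.6e-10), and the receptor Eda2r values of 0.06, 0.08 and 0.0061 at 4 h and 4.32, 3.05 and 3.93 at 24 h. Ccng1 and Zmat3 changed by 2.94 and 3.41. The death receptor Fas fell, with values of 1.40, 1.93 and 1.83 at 4 h and -1.84, -2.49 and -2.03 at 24 h, and so stood above fresh cells at 4 h and below them at 24 h. Cdkn1a, the inhibitor also called p21, at 1.21 and Mdm2 at -0.14 did not pass the test.

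Cytoskeletal genes rose broadly. Of 39 actin cytoskeleton genes 26 rose and 1 fell (median 1.23). Tropomyosin Tpm2, which stabilises actin filaments, had values of 0.23, 0.69 and 0.91 at 4 h and 6.24, 5.80 and 6.59 at 24 h. Its change was 5.60 ± 0.32 (adjusted p = 5.55e-08), and 3.98 with the mean of its probe sets. The actin cross-linker filamin A (Flna) had values of 0.25, 0.94 and 0.19 at 4 h and 5.81, 5.35 and 6.08 at 24 h, and skeletal actin (Acta1) values of 0.028, 0.18 and -0.00056 at 4 h and 6.18, 4.41 and 5.51 at 24 h. These 3 genes were within 1 unit of fresh cells on each 4 h array and above 4 on each 24 h array. Moesin (Msn), which ties actin to the membrane, changed by 5.19, thymosin Tmsb10 by 3.40 and alpha-actinin Actn1 by 3.06. Beta-actin (Actb) was at 0.80 on each 4 h array and 1.04, 1.06 and 1.07 on the 24 h arrays, a change of 0.26 ± 0.11 (adjusted p = 0.0542) that was not called. It was called higher under 4 of 16 alternatives, with changes of up to 0.34, and lower with centring on the reference genes (-0.31). Smooth muscle actin (Acta2), a mark of activated stellate cells, did not pass the test at -0.11. The kinase Mylk fell by 4.49. Of 14 tubulin genes 8 rose and none fell (median 1.26). Tuba1a had values of 0.88, 0.90 and 0.98 at 4 h and 5.69, 6.01 and 6.25 at 24 h, Tubb2b changed by 4.12 ± 0.49, and Tubb5 had values of -0.079, -0.079 and 0.19 at 4 h and 3.48, 3.54 and 3.63 at 24 h.

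Of 12 intermediate filament genes 5 rose and 1 fell, 41.7% and 8.33% against 36.1% and 19.5% of all genes tested. With centring on the reference genes 4 were higher and 6 lower. Their median of 0.19 turned negative under that centring and without probe sets that share sequence with other genes. Vimentin (Vim), a filament of mesenchymal cells, was already above fresh cells at 4 h and rose further, with values of 5.19, 2.55 and 4.42 at 4 h and 10.34, 10.23 and 10.40 at 24 h. Its change of 6.27 ± 0.57 (adjusted p = 1.93e-06) was 5.52 without the second 4 h array. Keratin 19 (Krt19), a filament of bile duct cells, had values of 0.0036, 0.093 and 0.018 at 4 h and 2.75, 4.6 and 5.37 at 24 h, a change of 4.20 ± 0.46 that was 4.95 without the first 24 h array. Keratin 18 (Krt18), a normal hepatocyte filament, had values of 3.07, 2.98 and 3.12 at 4 h and 3.22, 3.25 and 3.26 at 24 h and was not called, while centring on the reference genes made it lower (-0.38, called). The lamin Lmna changed by 2.53 ± 0.34, but by -0.15 and not called once probe sets that share sequence with other genes were left out.

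Of 30 integrin and focal adhesion genes 17 rose and 3 fell, and the median of 1.41 was the highest of the 45 lists. The adaptor Pdlim7 had values of 0.58, 0.085 and 1.19 at 4 h and 6.83, 7.19 and 7.69 at 24 h, and its 3 probe sets gave 0.36 to 6.62. Lims1, a partner of integrin-linked kinase, had values of 1.21, 0.031 and 1.37 at 4 h and 5.81, 6.36 and 6.48 at 24 h. Its change was 5.35 ± 0.36 (adjusted p = 1.83e-07), and 3.92 with the mean of its probe sets. The kinase Src changed by 3.83 ± 0.31 (adjusted p = 6.97e-07), and by 1.91 on the probe set that does not share sequence with other genes. The laminin-binding integrins Itga3 and Itga6 changed by 3.32 and 3.17, and Itgb1, the common partner chain, by 1.44. The collagen-binding integrin Itga1 fell by 1.53. Of 25 targets and regulators of YAP and SRF, which respond to spreading and actin tension, 11 rose and 3 fell (median 0.55). That was 44% and 12%, against 36.1% and 19.5% of all genes tested. Centring on the reference genes gave 8 higher and 9 lower, and leaving out probe sets of shared sequence 7 of 21 higher and 3 lower. Ankrd1 had values of 0.027, 0.075 and 0.063 at 4 h and 3.50, 3.50 and 4.31 at 24 h, a change of 3.72 ± 0.17 (adjusted p = 1.05e-08). The LIM protein Ajuba had values of -0.55, -4.52 and -0.89 at 4 h and 4.40, 4.31 and 4.37 at 24 h. Its change of 6.35 ± 0.85 was 7.06 without the first 4 h array and 5.08 without the second. Ccn1, a relative of Ccn2 also known as a YAP target, did not pass the test at -0.92.

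In the list of TGF-beta and matrix 10 of 26 rose and 3 fell, with 8 higher and 7 lower under centring on the reference genes. Without that centring the share that rose, 38.5%, was near the 36.1% of all genes tested, and 11.5% fell against 19.5%. Plod2, P4ha1 and P4ha2 are also members of the glycolysis and hypoxia list. Thrombospondin (Thbs1), which activates latent TGF-beta, had values of 0.013, 0.044 and 0.49 at 4 h and 2.91, 5.45 and 5.79 at 24 h. Its change of 4.53 ± 0.54 was 5.44 without the first 24 h array and 2.07 on its other probe set. The ligand Tgfb2 changed by 3.53, the receptor Tgfbr1 by 2.07, and the collagen prolyl hydroxylase P4ha2 had values of 1.97, 1.05 and 1.44 at 4 h and 5.35, 5.20 and 5.51 at 24 h. Fibronectin (Fn1) fell by 2.10, and the collagen chain Col1a2 at -0.16 did not pass the test. Of 28 cell junction genes 15 rose and 5 fell (median 0.99). Without probe sets that share sequence with other genes 8 of 23 rose and 5 fell, and the median was -0.11. Cldn3 rose by 3.17, the linker plakoglobin (Jup) by 2.25 and the scaffold Tjp1 by 1.43. The members that fell include those of hepatocyte gap junctions, with Gjb2 at 0.29, 0.30 and 0.28 at 4 h and -2.33, -3.57 and -3.58 at 24 h and Gjb1 at a change of -2.65. Cldn14, a claudin, had values of 2.18, 2.42 and 2.68 at 4 h and -1.16, -1.15 and -1.33 at 24 h, above fresh cells at 4 h and below them at 24 h. E-cadherin (Cdh1) did not pass the test at 0.30.

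Of 15 genes of fetal liver and progenitor cells 7 rose and 1 fell (median 0.95), and 4 rose and 4 fell with centring on the reference genes. Without that centring the shares were 46.7% and 6.67%, against 36.1% and 19.5% of all genes tested. Alpha-fetoprotein (Afp), the main plasma protein of fetal liver, had values of -0.36, -0.96 and -0.29 at 4 h and 1.88, 1.23 and 1.92 at 24 h, a change of 2.21 ± 0.28 (adjusted p = 2.61e-05), called on 2 of its 4 probe sets. Bex2 had values of 0.12, -0.061 and -0.08 at 4 h and 5.02, 6.67 and 5.80 at 24 h, and the surface protein Cd24a changed by 2.22. Igf2 at -0.19 and Dlk1 at -0.10, both abundant in fetal liver, did not pass the test. Sox9, a factor of bile duct cells, was far above fresh cells at both times, with values of 6.84, 8.07 and 6.49 at 4 h and 4.64, 5.64 and 5.43 at 24 h. Its change of -1.89 was not called without the second 4 h array (-1.43, adjusted p = 0.136), without the first 24 h array (-1.60, adjusted p = 0.112) or without the third (-1.99, adjusted p = 0.0611).

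The labelled cell type was checked against markers. Of 13 hepatocyte markers 12 fell and none rose, with a median of -0.54. Among them Tat, a tyrosine-degrading enzyme, had values of -0.15, 0.50 and -0.19 at 4 h and -3.84, -2.61 and -4.14 at 24 h. Of 15 macrophage markers 1 rose and 2 fell, and their mean per array was 0.12 to 0.86 at 4 h and 0.17 to 1.09 at 24 h. Cd68, a lysosomal protein most abundant in macrophages, stood far above fresh cells at both times, with values of 7.33, 7.24 and 7.50 at 4 h and 9.77, 10.17 and 10.03 at 24 h, whereas the Kupffer cell markers Clec4f at -0.35 and Adgre1 at -0.39 did not pass the test for the change between the 2 times. Mpeg1 changed by -2.36 ± 0.50, and Laptm5 by -1.01 ± 0.36 with a call that was lost under 5 of 16 alternatives. Of 12 markers of sinusoidal endothelium 1 fell, Fcgr2b at -1.70 ± 0.32, and of 9 stellate cell markers 1 rose, Reln, with values of -0.011, 0.0092 and 0.0036 at 4 h and 5.90, 5.76 and 5.41 at 24 h. Of 9 duct cell markers on the array only 4 passed the background filter, which keeps genes that vary between arrays. Of these Cldn4, Krt19 and Epcam rose and Sox9 fell, and their mean was 1.74 to 2.08 at 4 h and 4.35 to 5.50 at 24 h. Without the filter 3 of all 9 rose and 5 fell, with a median of -0.07. The lymphocyte marker Cd79b at -0.22 and the neutrophil marker S100a9 at -0.22 did not pass the test, but Cd79b was called lower under 4 of 16 alternatives, among them centring on the reference genes (-0.79), and S100a9 under that centring alone (-0.78). Of 3 erythroid markers Alas2 fell, with a change of -2.21. The part of other cell types in the results was not tested.

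**Figure D4:**
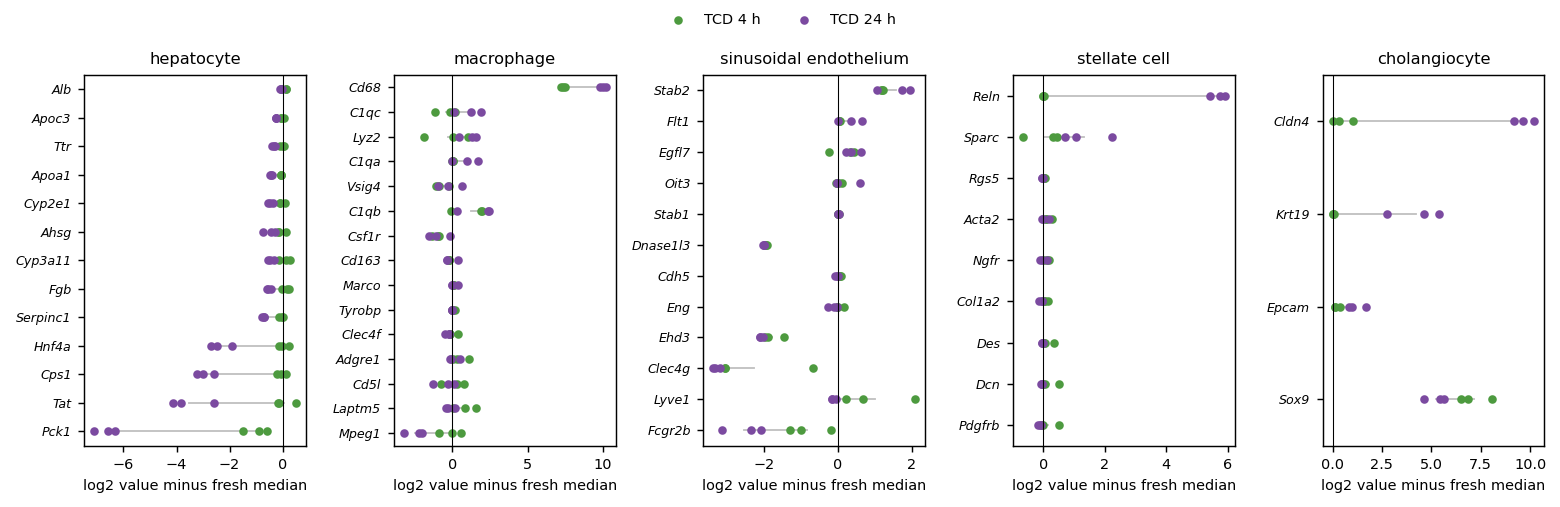
Values on each monolayer array, in log2 units relative to the median of fresh cells, for the measured markers of hepatocytes, macrophages, sinusoidal endothelium, stellate cells and bile duct cells (green, 4 h; purple, 24 h). Krt19 and Cldn4 are at 1.06 or less at 4 h and at 2.75 or more at 24 h, and Cd68 is above 7 at both times.

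Without the second 4 h array, 4067 genes were higher and 2408 lower, against 4481 and 2424 with it. In the same recount 25 of 29 bile acid genes fell, all 30 genes of amino acid breakdown fell and 22 of 30 liver transcription factors fell. On the rising side 27 of 39 actin cytoskeleton genes, 17 of 30 integrin and focal adhesion genes, 16 of 27 glycolysis and hypoxia genes and 22 of 28 ribosomal protein genes rose. No list turned from a majority of higher to one of lower genes or the reverse, although the counts of lysosome genes (9 higher and 9 lower) and macrophage markers (1 and 1) became even.

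To see which of these changes differ from those of hepatocytes kept as aggregates over the same hours, the change in monolayers was tested against the change in aggregates, 3 arrays at each time. Over all genes the difference was called for 1573 of 12423 (12.7%), more positive in monolayers for 7.73% and more negative for 4.93%. Of the 163 genes named here 52 differed; since they were named by the size of their monolayer change, that share says nothing about other genes. Plod2 changed by 7.08 in monolayers and 1.23 in aggregates, a difference of 5.85. For Acta1 the changes were 5.30 and -0.11 (5.40). Slc16a3 changed by 5.62 and 0.48 (5.14). Nupr1 changed by 4.67 in monolayers and -0.47 in aggregates (5.14). Tpm2 changed by 5.60 and 1.05 (4.55). The duct cell filament Krt19, the YAP target Ankrd1 and Thbs1 rose in monolayers and changed by -0.024, 0.024 and 0.014 in aggregates, none of them called. Their differences between the vessels were 4.22, 3.69 and 4.52.

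Among the falls, Acsm5 changed by -6.26 in monolayers and -2.72 in aggregates, a difference of -3.54. Aldh8a1 changed by -5.89 and -2.48 (-3.41). The gap junction gene Gjb2 fell by 3.45 in monolayers and changed by -0.68 in aggregates (-2.77). Pck1 changed by -5.67 in monolayers and by -9.34 in aggregates, so its fall was smaller in monolayers, with a difference of 3.67. For the liver regulators Hnf4a and Cebpa the differences, -1.03 and -0.82, were not called, with changes of -1.36 and -1.20 in aggregates. Cyp7a1, Vim and Sox4 had changes of -5.15, 6.58 and 7.26 in aggregates, and the differences of -0.55, -0.31 and 1.04 were not called. Whether the floor of the array limited the falls of Cyp7a1 was not tested.

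**Figure D5:**
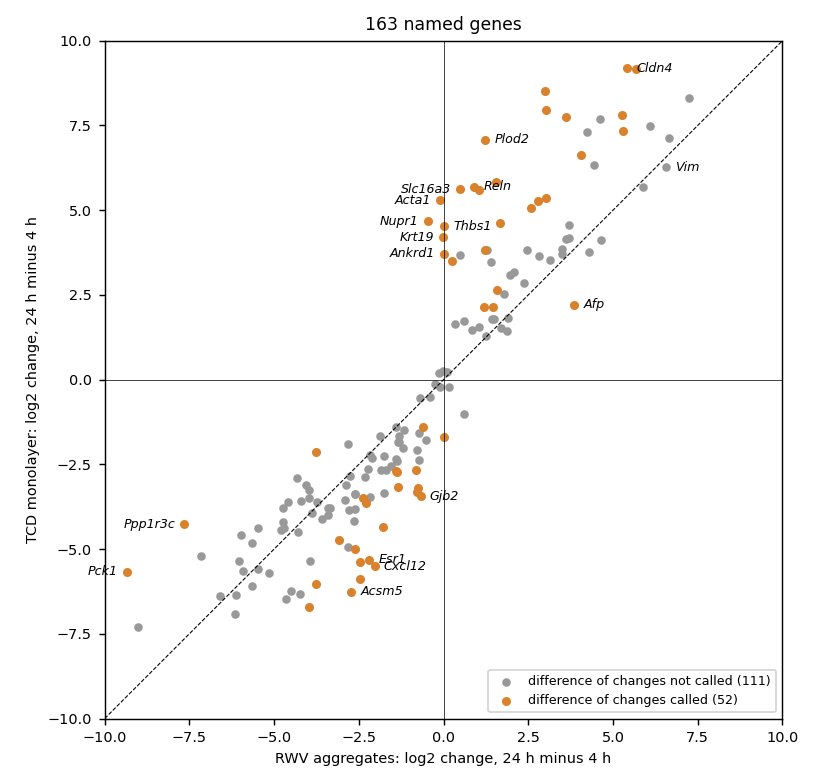
Each point is 1 of the 163 named genes, with its change from 4 h to 24 h in aggregates on the horizontal axis and in monolayers on the vertical axis, both in log2 units. The 52 genes whose changes differed by the test are orange, the other 111 grey, and the dashed line marks equal change.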

How the data were processed

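RNA of 15 samples was labelled with biotin and read on Affymetrix arrays with 45101 probe sets. The deposited values are log2 intensities; GCRMA is named in the submitters' processing notes, with its version not given in the sources used here. On the values, the median of the 3 fresh arrays is 0 for every probe set, so the authors deposited log2 differences from fresh cells. The depth of arrays is not a count, and their number limits the precision.

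Gene names came from the array's annotation, which can be old: 34945 probe sets had 1 symbol, 932 several and 9160 none, beside 64 controls, and 34741 of the first matched the RefSeq gene table. A probe set was set aside as background where it correlated above 0.8 with the median of the 20% of probe sets that vary least, taken array by array, and had an SD under 0.5, which removed 12849. The probe set with the largest SD stood for each of 12423 genes, and 5611 genes had more than 1. For 277 genes probe sets were called both higher and lower.

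Group means were fitted over all 15 arrays with limma 3.58.1 in R 4.3.3 (lmFit, contrasts.fit and eBayes, 10 residual degrees of freedom) with Benjamini-Hochberg adjustment, a threshold of 0.05 and 3 arrays a group. Tables were read with data.table (version 1.17.8), promoters with pandas 2.3.3 in Python 3.11.15, and figures drawn with matplotlib 3.10.9. On simulated data, with 200 of 12423 genes changed, 175 genes were called, 163 of them truly changed and 12 not (6.86%). The simulated noise was normal and independent between genes, with no odd array and no shift in scaling. That share is therefore not an error rate of the calls above, where 55.6% of the genes were called.

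The genes and lists were chosen with earlier results of these data known. The genes named with full values are the 12 largest rises and falls whose groups do not overlap, the 3 called genes of largest change in each list, and 12 fixed genes; other list members are given by their change alone and were picked to show the range of a list. Promoters were the first RefSeq entry of a gene (build GRCm38.p6), found for 10040 of the 12423 tested genes and 27025 genes in all, and the 250 bases before the start were searched.

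Replicate numbers come from the sample titles. The deviations of the same-numbered 4 h and 24 h monolayer arrays from their group means correlated at 0.12, 0.13 and 0.23, each above 0.1, so a fit with the replicate block was run as an alternative. The other alternatives were the 6 arrays alone, no background filter, other probe sets per gene, no probe sets of shared sequence, centring on reference genes or on the median of the least variable probe sets (chosen after seeing the data), array weights, robust eBayes, and each monolayer array left out in turn.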

Additional observations from a re-analysis of the deposited data

Results flagged for a closer look

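Among the named genes, 52 had a change from 4 h to 24 h in monolayers that differed from the change in aggregates, by limma's test of the difference of the 2 changes with Benjamini-Hochberg adjustment over all genes tested. The values below are the monolayer change minus the aggregate change on the log2 scale, with adjusted p-values from 1.11e-06 to 0.0472. Over all genes tested 12.7% were called by this test.

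Of 28 genes that rose in monolayers, 19 also rose in aggregates but by less. These differences were 5.85 for Plod2, 5.54 for Serpinb9g, 4.95 for Ccn2, 4.55 for Tpm2 and 4.28 for Bex2. They were 4.14 for Cpe, 3.77 for Cldn4, 3.50 for Anxa3, 2.96 for Cidea and 2.62 for Src. Smaller ones were 2.58 for Pdlim7, 2.55 for Ndufa4l2, 2.51 for Flna, 2.50 for Tuba1a and 2.32 for Lims1, and 2.03 for Slc25a24, 1.06 for Cd68, 0.95 for Gars and 0.70 for Npm1. For 8 genes the aggregate change was not called, with differences of 5.40 for Acta1, 5.14 for Nupr1, 5.14 for Slc16a3 and 4.78 for Reln, and of 4.52 for Thbs1, 4.22 for Krt19, 3.69 for Ankrd1 and 3.23 for Plat. The first set holds the tropomyosin Tpm2 and the adhesion adaptors Pdlim7 and Lims1, and the other the skeletal actin Acta1, the lactate exporter Slc16a3 and the neuronal matrix protein Reln. Alpha-fetoprotein ran the other way, since its rise was larger in aggregates, with a difference of -1.64 for Afp.

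Of 24 genes that fell in monolayers, 16 fell by less in aggregates. The differences were -3.54 for Acsm5, -3.49 for Cxcl12, -3.41 for Aldh8a1 and -3.12 for Esr1. Others were -2.91 for Slc7a2, -2.75 for Acsm3, -2.56 for Mgll and -2.39 for Kynu. In the remaining ones they were -2.28 for Bbox1, -1.83 for Mt1, -1.66 for Nr1i2 and -1.35 for Cldn14, and -1.34 for Apob, -1.28 for Masp1, -1.12 for Zfp36 and -0.80 for Sdha. The aggregate change was not called for 5 genes, with differences of -2.77 for Gjb2, -2.51 for Hlf, -2.45 for Id3, -1.84 for Dusp6 and -1.70 for Fcgr2b. For 3 genes the fall was larger in aggregates: the gluconeogenic Pck1, the glycogen-targeting Ppp1r3c and the phosphatase Dusp5 had differences of 3.67, 3.38 and 1.63.

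The call of the difference was lost under 1 or more alternatives for Bbox1, Cxcl12, Dusp6, Esr1, Fcgr2b, Hlf, Masp1 and Mt1. The same held for Ndufa4l2, Npm1, Pdlim7, Ppp1r3c, Sdha, Slc25a24, Slc7a2 and Zfp36. Without the second 4 h monolayer array the lost values were 1.98 for Ndufa4l2, 1.87 for Slc25a24, 2.31 for Pdlim7 and -3.12 for Cxcl12. Those of Esr1, Dusp6 and Zfp36 were then -2.76, -1.59 and -0.997.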

How the results depend on the processing

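Under 16 alternatives the count of genes called stayed between 5669 and 9009, against 6905, except without the background filter, where 13105 of 18193 genes were called and 8517 of them were lower. That alternative tests genes that follow the array background. It turned the medians of the S phase and mitosis list and of the duct cell markers negative. It also gave more lower genes in the list of TGF-beta and matrix and among stellate cell markers. Centring on the 10 reference genes gave 2803 higher and 6206 lower genes, and 1579 and 2638 at 2-fold or more, and the cause of the shift was not tested. Leaving out 1 array at a time gave 6143 to 6942 calls, 4067 to 4469 higher and 2063 to 2473 lower, 2528 to 3241 at least 2-fold higher and 1428 to 1565 at least 2-fold lower. With the mean of the probe sets of a gene 2211 genes were called at least 2-fold higher and 1250 at least 2-fold lower, against 3017 and 1483. The replicate block gave 7111 calls and changed the call of no named gene. Of the 157 named genes that were called, 146 kept their call under every alternative. Of the named genes 4 turned sign: Lmna to -0.15 without probe sets of shared sequence, and Actb to -0.31, Krt18 to -0.38 and Myc to -0.35 with centring on the reference genes, Myc with a call in neither case. Among the called differences between the vessels' changes that of Masp1 turned, to 0.12, with the probe set chosen from the 9 other arrays. Of the 52 differences between the vessels 36 kept their call, and leaving out 1 monolayer array gave 43 to 52 calls; aggregate arrays were not left out in turn. The number of arrays limits the precision.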
